A study of Mus musculus with 3 samples.

Results

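The Ly6 family genes Ly6a, Ly6c1, Ly6c2, Ly6d and Ly6e were followed through liver cell classes of mice with different Adar1 genotypes. These 5 genes, of 32285 in the deposited count table, were matched by symbol. They were chosen because earlier results of the same counts had shown differences in them between libraries, so their levels and ratios are a description and carry no test. ADAR1 edits double-stranded RNA, and Ifih1 encodes MDA5, a sensor of such RNA. Single-cell RNA was profiled with the 10x Genomics 3' kit from livers of male C57BL/6 mice aged 9 weeks. All were Ifih1-/- and Alb-Cre+, so that the controls too lacked Ifih1 and carried the Cre transgene. The Adar1 genotypes were wt/wt, wt/flox, flox/flox, with 1 library each. Cre under the albumin promoter acts in hepatocytes, and the other cells of the liver are not its target. How many animals a library drew on is not given in the sources used here.

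Ly6 proteins are small, cysteine-rich proteins, most of them held at the cell surface by a glycosylphosphatidylinositol anchor. Ly6a encodes Sca-1, a marker of haematopoietic stem cells that is also found on endothelial cells and lymphocytes. Ly6c1 and Ly6c2 encode the Ly6C antigens, which mark inflammatory monocytes and some T cells. Ly6d is a marker of early B cells and of plasmacytoid dendritic cells. Ly6e is widely expressed and affects the entry of several viruses. Type I interferon is known to induce Ly6a, Ly6c and Ly6e in leukocytes.

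The genes lie in 1 cluster on chromosome 15 of GRCm38, the build that the name mm10 stands for. Ly6d (ENSMUSG00000034634) spans 74762056 to 74763620 on the minus strand. Ly6e (ENSMUSG00000022587) spans 74955051 to 74959905 on the plus strand. Ly6a (ENSMUSG00000075602) spans 74994877 to 74998031, Ly6c1 (ENSMUSG00000079018) 75044018 to 75048830 and Ly6c2 (ENSMUSG00000022584) 75108158 to 75111970, all on the minus strand. Codons 10 to 109 of the 3 members that were high in hepatocyte-like barcodes are shown 5′ to 3′, from the GENCODE vM21 transcripts, with in-frame cysteine codons in capitals, since the cysteines are what the family shares.
Ly6a: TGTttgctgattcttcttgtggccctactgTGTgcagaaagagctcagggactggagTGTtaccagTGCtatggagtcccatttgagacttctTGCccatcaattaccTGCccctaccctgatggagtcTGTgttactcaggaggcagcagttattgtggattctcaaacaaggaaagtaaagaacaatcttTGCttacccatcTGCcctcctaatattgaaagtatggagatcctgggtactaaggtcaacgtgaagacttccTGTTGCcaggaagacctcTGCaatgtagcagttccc
Ly6d: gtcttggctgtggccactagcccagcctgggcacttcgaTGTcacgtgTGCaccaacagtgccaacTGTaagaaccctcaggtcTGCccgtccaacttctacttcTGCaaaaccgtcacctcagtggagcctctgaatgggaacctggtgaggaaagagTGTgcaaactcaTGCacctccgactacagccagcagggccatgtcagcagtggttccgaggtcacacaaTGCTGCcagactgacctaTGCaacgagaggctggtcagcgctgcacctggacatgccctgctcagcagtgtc
Ly6e: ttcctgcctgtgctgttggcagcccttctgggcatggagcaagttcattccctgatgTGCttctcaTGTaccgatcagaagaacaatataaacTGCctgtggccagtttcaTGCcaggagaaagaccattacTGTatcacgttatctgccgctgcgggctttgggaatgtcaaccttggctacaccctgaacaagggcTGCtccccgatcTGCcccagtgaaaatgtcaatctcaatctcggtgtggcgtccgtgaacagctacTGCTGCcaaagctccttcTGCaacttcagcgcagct
Ly6a had 12 cysteine codons among 134, Ly6d 11 among 127 and Ly6e 10 among 136. The stretches hold all of them except 1 of Ly6d. In each, an adjacent pair of cysteine codons near the 3' end of the stretch is followed by another shortly after. The coding sequence of Ly6a was 53.8% identical to that of Ly6e and 50% identical to that of Ly6d. None of the 351 windows of 50 bases in the last 400 bases of any of these 3 transcripts occurred in a transcript of another gene, so that 3' reads can be assigned to each of them.

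Ly6c1 and Ly6c2 cannot be told apart as cleanly, and bases 1 to 300 of their coding sequences are shown with the differing bases in capitals.
Ly6c1: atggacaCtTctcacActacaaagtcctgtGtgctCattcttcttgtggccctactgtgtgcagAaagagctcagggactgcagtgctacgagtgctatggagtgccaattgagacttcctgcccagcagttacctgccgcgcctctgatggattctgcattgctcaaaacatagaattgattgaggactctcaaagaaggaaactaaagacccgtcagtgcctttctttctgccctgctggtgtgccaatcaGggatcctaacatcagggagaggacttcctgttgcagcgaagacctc
Ly6c2: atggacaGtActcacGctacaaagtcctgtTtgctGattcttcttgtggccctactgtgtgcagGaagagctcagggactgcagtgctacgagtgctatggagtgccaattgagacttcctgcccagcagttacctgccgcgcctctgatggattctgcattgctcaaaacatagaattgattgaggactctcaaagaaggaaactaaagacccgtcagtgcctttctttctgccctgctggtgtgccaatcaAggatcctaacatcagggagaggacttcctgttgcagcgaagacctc
The whole coding sequences differed at 9 of 396 bases, an identity of 97.7%, and 7 of the 9 lie in the stretches shown. Of the 351 windows at the 3' end, 82 of Ly6c1 (23.4%) also occurred in Ly6c2 and 88 of Ly6c2 (25.1%) in Ly6c1. How the authors' counting treated reads that fit both genes is not given in the sources used here, and the split between them is uncertain.

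Each library held 10000 barcodes and between 9744380 and 10756790 UMIs, and between 9772 and 9920 barcodes were kept. Clustering, run without the Ly6 family genes, put 8387, 7554 and 7941 barcodes of the wt/wt, wt/flox, flox/flox libraries into hepatocyte-like clusters, with median depths of 825, 862 and 904 UMIs. Between pairs of libraries 20 to 32 barcodes had the same sequence. Adar, the targeted gene, stood at 10.4, 17.2 and 35.2 CPM (the usual depth-scaled count, here the UMIs of a gene against all UMIs of its class) across the hepatocyte-like class, in the order wt/wt, wt/flox, flox/flox used throughout. Its highest level was thus that of the label flox/flox, which goes against the label, and every direction below rests on that label. A 3' read can lie outside the deleted part of a gene, so this level does not check the deletion. With 1 library per genotype there is no replicate check, and the 95% intervals cover counting error alone. Fewer cells of a kind and less RNA per cell cannot be told apart in a summed level.

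In hepatocyte-like barcodes 3 members were high in the library labelled flox/flox: Ly6a, which was close to absent from the others, Ly6e, and at a low level Ly6d. Ly6a had 6 UMIs in wt/wt and 23 in wt/flox, but 989 in the library labelled flox/flox. These counts amounted to 0.754 CPM (interval 0.277 to 1.64), 3.12 CPM (1.98 to 4.68) and 118 CPM (111 to 126). The level in the library labelled flox/flox was set apart from both others, which differed less from each other. Its log2 ratio relative to wt/wt was 7.29 (6.16 to 8.74), the highest of 11515 genes with at least 20 UMIs in this class, and relative to wt/flox 5.24 (4.65 to 5.91). At least 1 Ly6a UMI was found in 11.2% of hepatocyte-like barcodes there (10.5% to 11.9%), against 0.0715% in wt/wt and 0.291% in wt/flox. After thinning each barcode to 1000 UMIs the shares were 0.209%, 0.295% and 9.44%, in library order. Neutrophil-like barcodes, a type low in Ly6a, held it in 0%, 1.25% and 1.85% (82, 160 and 54 barcodes; median depths 814.5, 836 and 759 UMIs). The count of 0 in 82 barcodes allows a share of up to 3.66%. The 1.85%, from 1 of 54 barcodes, has an interval of 0.0469% to 9.89%, so these barcodes are too few to set a background share.

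Ly6e was present in hepatocyte-like barcodes of all 3 libraries. It had 1487 UMIs in wt/wt (187 CPM) and 1698 in wt/flox (230 CPM), but 7663 in the library labelled flox/flox (915 CPM). The wt/wt and wt/flox levels lay close together, with the third far above both. The log2 ratio was 2.29 (2.21 to 2.37) relative to wt/wt and 1.99 (1.91 to 2.07) relative to wt/flox, against 0.30 (0.20 to 0.40) for wt/flox relative to wt/wt. Barcodes with a Ly6e UMI made up 15.3%, 19.3% and 56.6% of the class, and 16.4%, 18.5% and 55.9% after thinning. In the library labelled flox/flox 3.51% of hepatocyte-like barcodes held 4 or more Ly6e UMIs, compared with 0.107% in wt/wt. Ly6a there came mostly as single UMIs: 804 barcodes held 1, 75 held 2, 9 held 3 and 2 held 4 or more.

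**Figure D1:**
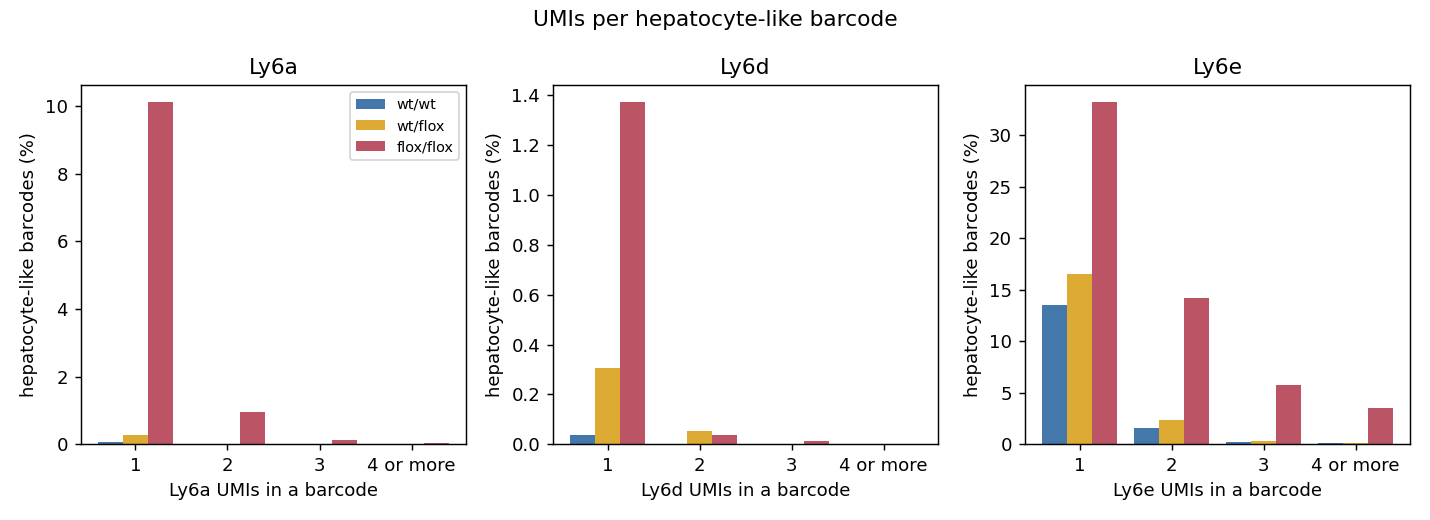
Share of hepatocyte-like barcodes (%, vertical axis, scaled for each gene) holding 1, 2, 3 or 4 or more UMIs of Ly6a, Ly6d and Ly6e (horizontal axis) in the libraries labelled wt/wt (blue), wt/flox (yellow) and flox/flox (red). Ly6a and Ly6d were nearly all single UMIs, while 14.2% of barcodes in the library labelled flox/flox held 2 Ly6e UMIs.

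Ly6d had 3, 31 and 118 UMIs in hepatocyte-like barcodes, or 0.377 CPM (0.0778 to 1.10) in wt/wt, 4.20 (2.86 to 5.97) in wt/flox and 14.1 (11.7 to 16.9) in the library labelled flox/flox. The 3 intervals did not overlap. The log2 ratio was 5.22 (3.64 to 7.52) relative to wt/wt and 1.75 (1.16 to 2.37) relative to wt/flox, and 3.48 (1.80 to 5.83) for wt/flox relative to wt/wt. All of these rest on few UMIs: 1.42% of hepatocyte-like barcodes in the library labelled flox/flox held one. Ly6c1 was at 0, 0 and 7 UMIs and Ly6c2 at 4, 7 and 8, so that neither reached the 20 UMIs set for a ratio. Of the 5 members 3 were thus measured in this class, and all 3 were at least 1.5-fold higher with the label flox/flox, relative to wt/wt. Of all genes measured there 14.3% were, and relative to wt/flox 12.8%. As the members were chosen on these contrasts, nothing is read from their count.

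RNA of other cells was present in hepatocyte-like barcodes and was measured from their markers. For each other class the median ratio of its markers gave its share, and the sum over classes gave the member level that this RNA would carry. For Ly6a it came to 0.904, 3.40 and 9.91 CPM in wt/wt, wt/flox, flox/flox, which is 120%, 109% and 8.39% of the measured level. The few Ly6a UMIs of the wt/wt and wt/flox libraries were at or below that background, and Ly6a above it was not detectable at this depth. For Ly6d the carried level was 177%, 70.2% and 12.8% of the measured one. The plasmacytoid dendritic share was estimated at 0 in wt/wt and wt/flox, so this class, high in Ly6d, added nothing there. With the label flox/flox it was 0.0643% of UMIs and gave 0.565 of the 1.81 CPM of Ly6d carried. For Ly6c2, at 4, 7 and 8 UMIs, the carried level was 166%, 113% and 241% of the measured one, so the estimate can exceed what was there. For Ly6e the carried level stayed between 2.99% and 7.61%. With that RNA taken off, an alternative added after the data were seen, no Ly6a UMI was left in wt/wt or wt/flox against 906 with the label flox/flox, so that its ratios are set by the floor of 3 counts and are not measured. For Ly6d the log2 ratio relative to wt/flox was 3.30, from 103 UMIs and 9.23, and none was left in wt/wt. The B cell markers, 10 genes, summed to 11.8, 22.1 and 15.9 CPM in hepatocyte-like barcodes, with 0, 1 and 0 of them at 0. Those of plasmacytoid dendritic cells summed to 213, 296 and 396 CPM with 6, 6 and 1 at 0, a sum that includes the interferon-induced Bst2. Among thinned hepatocyte-like barcodes from the library labelled flox/flox, a B cell marker was found in 8.11% of the 37 barcodes with Ly6d and in 0.891% of those without. The shares were 8.11% and 3.63% for plasmacytoid dendritic, 8.11% and 2.91% for endothelial and 2.70% and 1.88% for stellate or fibroblast markers. Kupffer markers (2.70% and 3.05%) and T cell markers (0% and 0.548%) were not more frequent with Ly6d. With 37 barcodes, shares as small as 2.70% or 0% set no direction. In wt/flox a B cell marker was found in 66.7% of 6 barcodes with Ly6d and in 0.719% of those without. Among barcodes with no UMI of any of 124 markers of other classes, the log2 ratios relative to wt/wt were 7.71 for Ly6a (850 and 4 UMIs) and 2.30 for Ly6e. Of the 3, 31 and 118 Ly6d UMIs of the class, 0, 5 and 97 lay in these barcodes, and its 4.99 is set by the floor of 3 counts. In wt/flox 6567 of 7554 hepatocyte-like barcodes were without such a marker, so most of its Ly6d UMIs lay in the smaller part with one. Other marker lists moved with the library as well: the neutrophil list of 10 genes summed to 30.0, 127 and 166 CPM (2, 2 and 4 genes at 0) and the cholangiocyte list of 10 genes to 17.5, 47.0 and 116 CPM (5, 3 and 6 at 0, Epcam and Krt19 among the 6). Their part in the member levels was not tested.

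The median share of mitochondrial UMIs also moved with the library, at 5.01%, 4.18% and 7.93% of hepatocyte-like barcodes. Computed without mitochondrial genes, the log2 ratios relative to wt/wt were 7.33 for Ly6a, 5.27 for Ly6d and 2.33 for Ly6e. The hepatocyte-like barcodes fell into 7 clusters that the libraries filled differently. The largest cluster of wt/wt held 32.2% of its hepatocyte-like barcodes and 11.6% with the label flox/flox, where the largest held 37.7%, against 16.5% in wt/wt. In the library labelled flox/flox Ly6a was found in every one, at levels from 86.3 to 135 CPM. Its lowest cluster, with the nuclear RNA Neat1 among its leading genes, was at 86.3 CPM (69.7 to 106). That interval lay below those of the largest cluster, at 120 CPM (108 to 133), and of one at 134 CPM (114 to 157). It overlapped with those of the other clusters. Ly6e varied more, from 503 CPM (457 to 553) to 1388 CPM (1264 to 1520). Its highest cluster held 0.596% of the class in wt/wt and 4.29% with the label flox/flox, and had a median mitochondrial share of 23.8% there. The second highest (1160 CPM), which is the largest cluster of that library, had one of 13.5%, and the lowest one of 1.91%. In wt/wt the same 3 clusters stood at 378 CPM of Ly6e (220 to 604; 17 UMIs in 50 barcodes), 292 (263 to 323) and 136 (119 to 155). The first and second were alike within counting error there, and both lay above the third. In each of the 3 the library labelled flox/flox had the higher level. The part of mitochondrial content in this order was not tested.

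Genes of the type I interferon response moved with these members. Of 34 listed, 32 matched a symbol and 30 were measured in hepatocyte-like barcodes, and 30 were at least 1.5-fold higher with the label flox/flox, relative to wt/wt, with a median log2 ratio of 2.52. Relative to wt/flox it was 27 of 30 (median 1.45), and for wt/flox relative to wt/wt 18 of 30 (median 0.77), beside 10.5% of all measured genes. Ifi44, a cytoplasmic protein of the response, had the highest ratio relative to wt/wt at 6.74 (5.51 to 8.37). In the middle were Oasl1, an oligoadenylate synthetase-like protein, at 2.55 (2.17 to 2.96) and Rsad2, which encodes viperin, at 2.49 (2.06 to 2.95). Ifi35 had the lowest, 0.68 (0.41 to 0.95). Set beside these, Ly6a was above Ifi44 and Ly6e just below the middle of the list. In the other classes the listed genes at least 1.5-fold higher relative to wt/wt were 26 of 30 measured in Kupffer-, 22 of 23 in endothelial-, 18 of 20 in stellate or fibroblast-, 21 of 25 in T-, 11 of 13 in plasmacytoid dendritic-, 7 of 9 in neutrophil- and 5 of 5 in B-like barcodes, with median log2 ratios between 1.02 and 1.85. The part of hepatocyte RNA in these counts was not tested.

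Within the library labelled flox/flox Ly6a and Ly6e did not rise with that list from cluster to cluster. The cluster with the highest summed interferon list, 5159 CPM, had the lowest Ly6e, 503 CPM, and that with the lowest list, 1935 CPM, the highest Ly6e, 1388 CPM. Ly6a was 121 and 135 CPM in those clusters, with overlapping intervals. Across single barcodes thinned to 1000 UMIs, Ly6e was found in 53.8% of 279 barcodes with Ly6a and in 56.1% of 2676 without. Barcodes with Ly6a held a mean of 3.93 UMIs of the interferon list and those without 3.44. For Ly6e the corresponding means were 3.31 and 3.71. These barcodes come from a single library.

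**Figure D2:**
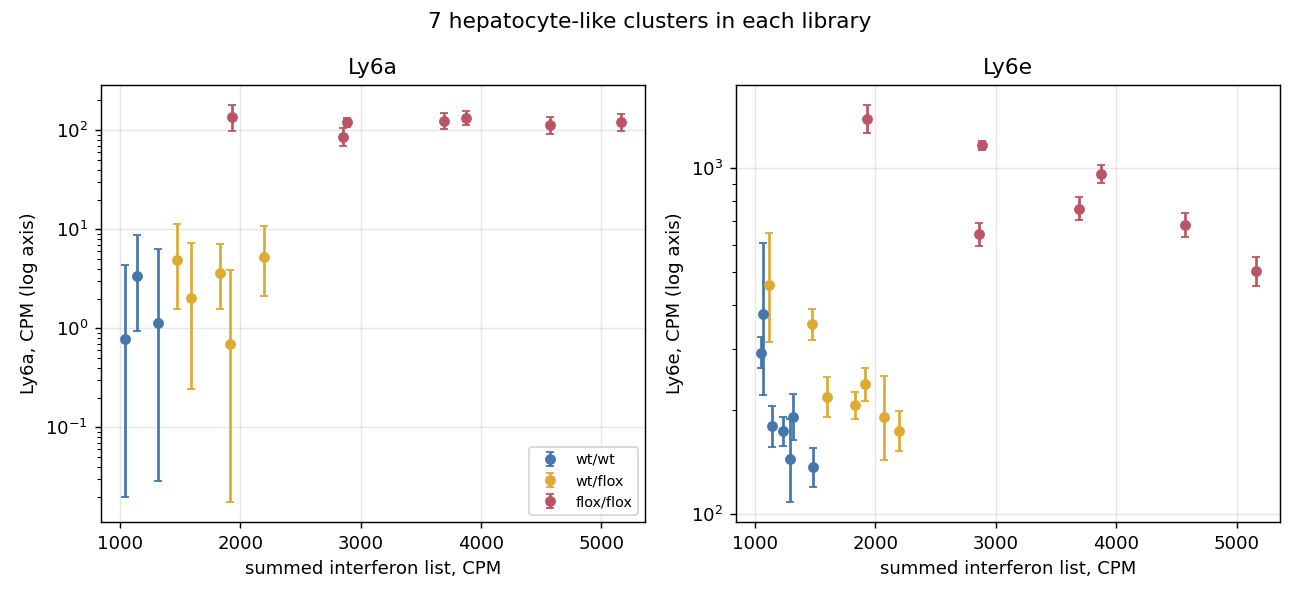
Level of Ly6a (left) and Ly6e (right) in CPM on log axes against the summed level of the interferon list in CPM, for the 7 hepatocyte-like clusters in each library (wt/wt blue, wt/flox yellow, flox/flox red). Bars are 95% counting intervals, and clusters with no UMI of the gene are not drawn. In the library labelled flox/flox Ly6a lies between 86.3 and 135 CPM across clusters, while Ly6e falls from 1388 to 503 CPM as the list rises from 1935 to 5159 CPM, with clusters between them out of order.

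Outside hepatocytes, the ratios were taken in the 7 other classes with at least 50 barcodes in every library. Ly6a was at least 1.5-fold higher with the label flox/flox, relative to wt/wt, in 7 of the 7 classes where it was measured, hepatocyte-like barcodes included, and in 6 of 7 relative to wt/flox. Between wt/flox and wt/wt it was higher in 4 of 7 and lower in 1, the B-like class. The 4 include hepatocyte-like barcodes (2.05, from 23 and 6 UMIs), where both levels were within the RNA carried from other cells. Its largest ratios after the hepatocyte-like one were in cells of the liver's supporting tissue and in macrophages. In stellate or fibroblast-like barcodes it had 3, 23 and 72 UMIs in wt/wt, wt/flox, flox/flox, or 15.9, 160 and 718 CPM. The log2 ratio relative to wt/wt was 5.50 (3.89 to 7.81), the highest of 4194 genes, of which 17.2% were at least 1.5-fold higher. In Kupffer-like barcodes, the resident macrophages, Ly6a had 6, 32 and 151 UMIs, or 23.9, 92.1 and 418 CPM. This was a log2 ratio of 4.13 (2.97 to 5.60), again the highest of 6656 genes (19.7% higher). In endothelial-like barcodes it had 31, 109 and 125 UMIs, or 73.8, 247 and 717 CPM, a log2 ratio of 3.28 (2.70 to 3.90) beside 18.1% of genes higher. Among barcodes with at least 2000 UMIs, 6, 6 and 7 in number, it was 0.47, below 1.5-fold. In these 3 classes the wt/flox level lay between the other libraries, with log2 ratios relative to wt/wt of 3.33 (1.60 to 5.71), 1.95 (0.67 to 3.50) and 1.74 (1.16 to 2.37). With at least 2000 UMIs the Kupffer-like one was 0.26, below 1.5-fold, from 4 UMIs in 11 wt/flox barcodes and 1 UMI in 9 wt/wt ones, the latter set to the floor of 3 counts.

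Lymphocytes and plasmacytoid dendritic cells had more Ly6a at the start and smaller ratios. In T-like barcodes, from which natural killer cells were not separated, it was at 126, 149 and 307 CPM (43, 79 and 189 UMIs), a log2 ratio of 1.28 (0.80 to 1.80) relative to wt/wt. Different clusters made up this class: one led by Ccl5, Nkg7 and Gzma held 287, 68 and 485 barcodes and one led by Ms4a4b and Cd3e 45, 456 and 107. In the first Ly6a was at 114, 124 and 310 CPM (34, 9 and 157 UMIs) and in the second at 207, 153 and 293 CPM (9, 70 and 32 UMIs). In the second the intervals of wt/wt (94.7 to 393) and of the label flox/flox (200 to 414) overlapped. In B-like barcodes it was at 168 CPM in wt/wt (98.0 to 269; 17 UMIs), 73.5 in wt/flox (36.7 to 132; 11 UMIs) and 483 in the library labelled flox/flox (356 to 641; 48 UMIs). The log2 ratio relative to wt/wt was 1.52 (0.70 to 2.41). In plasmacytoid dendritic-like barcodes it was at 396, 527 and 771 CPM (28, 60 and 164 UMIs), the smallest log2 ratio, 0.96 (0.38 to 1.59). Genes at least 1.5-fold higher made up 20.5% in T-like, 19.3% in B-like and 22.4% in plasmacytoid dendritic-like barcodes. For the comparison with wt/flox these shares were 18.2% in endothelial-, 16.9% in stellate or fibroblast-, 17.1% in Kupffer-, 18.7% in T-, 19.1% in B-, 18.9% in plasmacytoid dendritic- and 18.5% in neutrophil-like barcodes. Between wt/flox and wt/wt they were 13.2%, 14.5%, 17.8%, 15.9%, 18.3%, 20.1% and 19.3% in the same order of classes, and 14.1% of genes were at least 1.5-fold lower in B-like ones.

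Of the 8 classes, plasmacytoid dendritic-like barcodes had the highest Ly6a in every library. In wt/wt the order ran from plasmacytoid dendritic-like over B-, T-, endothelial-, Kupffer- and stellate or fibroblast-like to hepatocyte-like barcodes. In that order the intervals of each pair of neighbours overlapped except those of the last pair, and neutrophil-like barcodes had no UMI. In the library labelled flox/flox they were followed by stellate or fibroblast- and endothelial-like ones, and these intervals all overlapped. B-, Kupffer-, T- and hepatocyte-like barcodes came next, the last set apart from T-like ones, and neutrophil-like ones stood at 21.8 CPM (0.553 to 122; 1 UMI). Of all Ly6a UMIs, hepatocyte-like barcodes held 3.92% in wt/wt and 5.71% in wt/flox, but 51.2% in the library labelled flox/flox. T-like barcodes had held the largest part in wt/wt, 28.1%. Plasma-like barcodes, 12, 19 and 30 in number and outside the 8 classes, held Ly6a at 45.0, 618 and 796 CPM. These came from 1, 24 and 60 UMIs, of which up to 21 lay in 1 barcode. In wt/flox and with the label flox/flox they stood above plasmacytoid dendritic-like barcodes, with overlapping intervals.

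**Figure D3:**
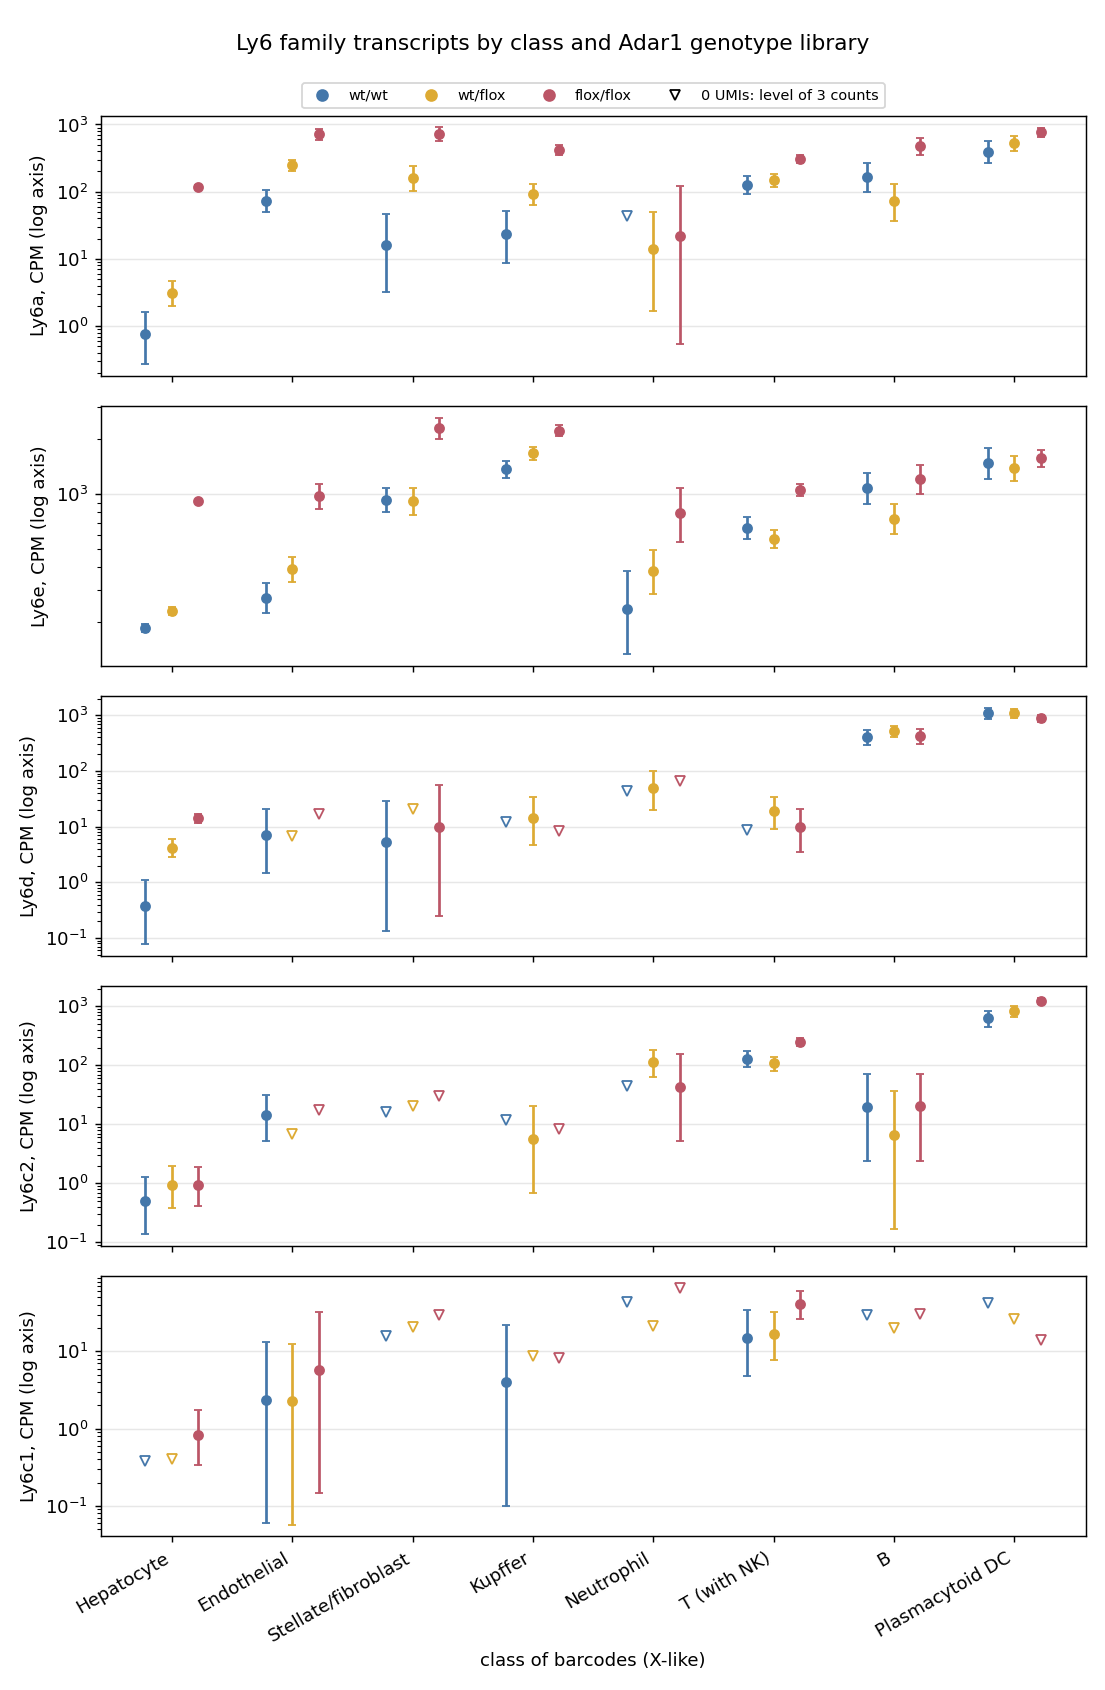
Level of each member in CPM (log axes, which differ between panels) by class of barcodes, in the libraries labelled wt/wt (blue), wt/flox (yellow) and flox/flox (red). Points are levels from summed UMIs with 95% Poisson intervals, and open triangles mark the level of 3 counts where no UMI was found. Ly6a rises from 0.754 to 118 CPM in hepatocyte-like barcodes, and Ly6d stays high in B- and plasmacytoid dendritic-like barcodes of every library.

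Ly6e was at least 1.5-fold higher relative to wt/wt in 6 of 8 classes and relative to wt/flox also in 6 of 8, while between wt/flox and wt/wt it was so in 1 of 8, the neutrophil-like class, at 0.69 with an interval that spans 0 (-0.13 to 1.60). Hepatocyte RNA would carry 62.2% and 47.0% of Ly6e there in wt/wt and wt/flox. The B-like ratio relative to wt/flox was 0.72 (0.33 to 1.10). It fell below 1.5-fold with no barcode filter (0.58), at either other clustering resolution (0.56) and with the class from marker counts (0.55). In endothelial-like barcodes Ly6e was at 271, 390 and 976 CPM (114, 172 and 170 UMIs), a log2 ratio relative to wt/wt of 1.85 (1.49 to 2.20). In stellate or fibroblast-like barcodes the levels were 933, 916 and 2303 CPM (176, 132 and 231 UMIs), a ratio of 1.30 (1.01 to 1.59), with wt/wt and wt/flox alike within counting error. Kupffer-like barcodes held 1373, 1673 and 2226 CPM (345, 581 and 804 UMIs), a ratio of 0.70 (0.51 to 0.88). T-like barcodes held 655, 571 and 1059 CPM (223, 302 and 652 UMIs), a ratio of 0.69 (0.47 to 0.92). With at least 1000 UMIs the T-like ratio was 0.41 and the Kupffer-like one 0.57, both below 1.5-fold. Neutrophil-like barcodes held 235, 379 and 786 CPM from 16, 54 and 36 UMIs, a ratio of 1.74 (0.86 to 2.69) beside 18.7% of genes higher, which was 0.23 with at least 1000 UMIs. In the remaining classes the interval spanned 0. The ratio was 0.16 (-0.22 to 0.55) in B-like barcodes, at 1078, 735 and 1208 CPM, and 0.08 (-0.24 to 0.41) in plasmacytoid dendritic-like ones, at 1485, 1389 and 1574 CPM. In wt/wt the latter had the highest Ly6e, whose interval overlapped that of Kupffer-like barcodes, and of the 8 classes hepatocyte-like barcodes had the lowest, 187 CPM, which lies within the interval of neutrophil-like ones (134 to 381).

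**Figure D4:**
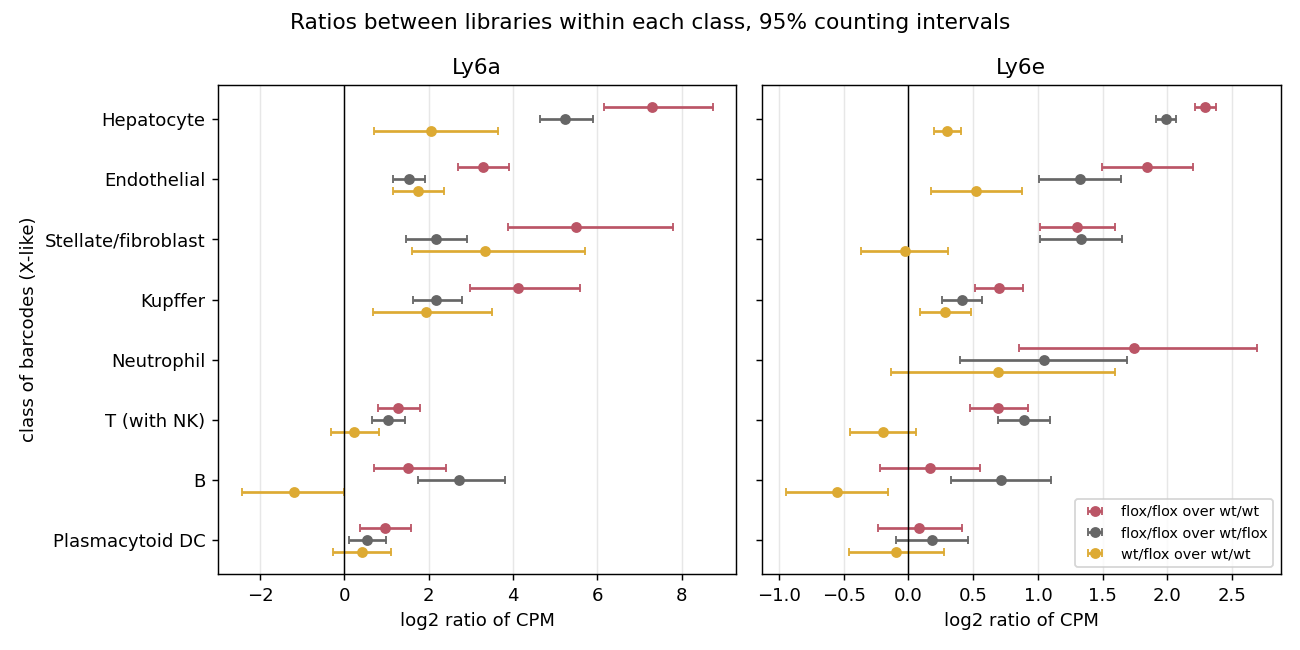
Log2 ratios of CPM between libraries (horizontal axis, scaled for each gene) for Ly6a (left) and Ly6e (right) within each class (vertical axis), with 95% counting intervals: flox/flox relative to wt/wt in red, flox/flox relative to wt/flox in grey and wt/flox relative to wt/wt in yellow. Ly6a has no point in neutrophil-like barcodes, where it had under 20 UMIs. The ratios relative to wt/wt run from 0.96 to 7.29 for Ly6a and from 0.08 to 2.29 for Ly6e, both highest in hepatocyte-like barcodes.

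Hepatocyte RNA made up a large part of the UMIs in these other classes. From 12 hepatocyte markers its share in the library labelled flox/flox was 37.4% of UMIs in Kupffer-like, 40.4% in stellate or fibroblast-like, 54.6% in endothelial-like and 74.0% in neutrophil-like barcodes. At the level of Ly6e in hepatocyte-like barcodes, that RNA would carry 343 of 2226 CPM in Kupffer-like barcodes and 499 of 976 CPM in endothelial-like ones. In neutrophil-like barcodes it would carry 678 of 786 CPM. With the carried level taken off, also an alternative added after the data were seen, the log2 ratio of Ly6e relative to wt/wt was 0.07 in T-like, 0.55 in Kupffer-like, 0.29 in neutrophil-like, 1.18 in stellate or fibroblast-like and 1.53 in endothelial-like barcodes. Those of the T-, Kupffer- and neutrophil-like classes were thus no longer past 1.5-fold. It was -0.55 in B-like and -0.28 in plasmacytoid dendritic-like barcodes. Relative to wt/flox the Ly6e ratio was then 0.41 in T-like, 0.19 in B-like and -0.89 in neutrophil-like barcodes, no longer past 1.5-fold. It stayed past 1.5-fold in hepatocyte-, endothelial- and stellate or fibroblast-like ones. For Ly6a the carried level was smaller, 44.2 of 418 CPM in Kupffer-like and 47.7 of 718 CPM in stellate or fibroblast-like barcodes. The 6 ratios of Ly6a relative to wt/wt outside hepatocytes were then between 0.85 and 5.40, all still past 1.5-fold on the full class total. These ratios of Ly6a and Ly6e kept that total, hepatocyte UMIs included. The hepatocyte share differed between libraries, in T-like barcodes 65.6% in wt/wt and 54.8% with the label flox/flox. A lower share with the label flox/flox raises such ratios, and ratios to the remaining UMIs alone were not computed.

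**Figure D5:**
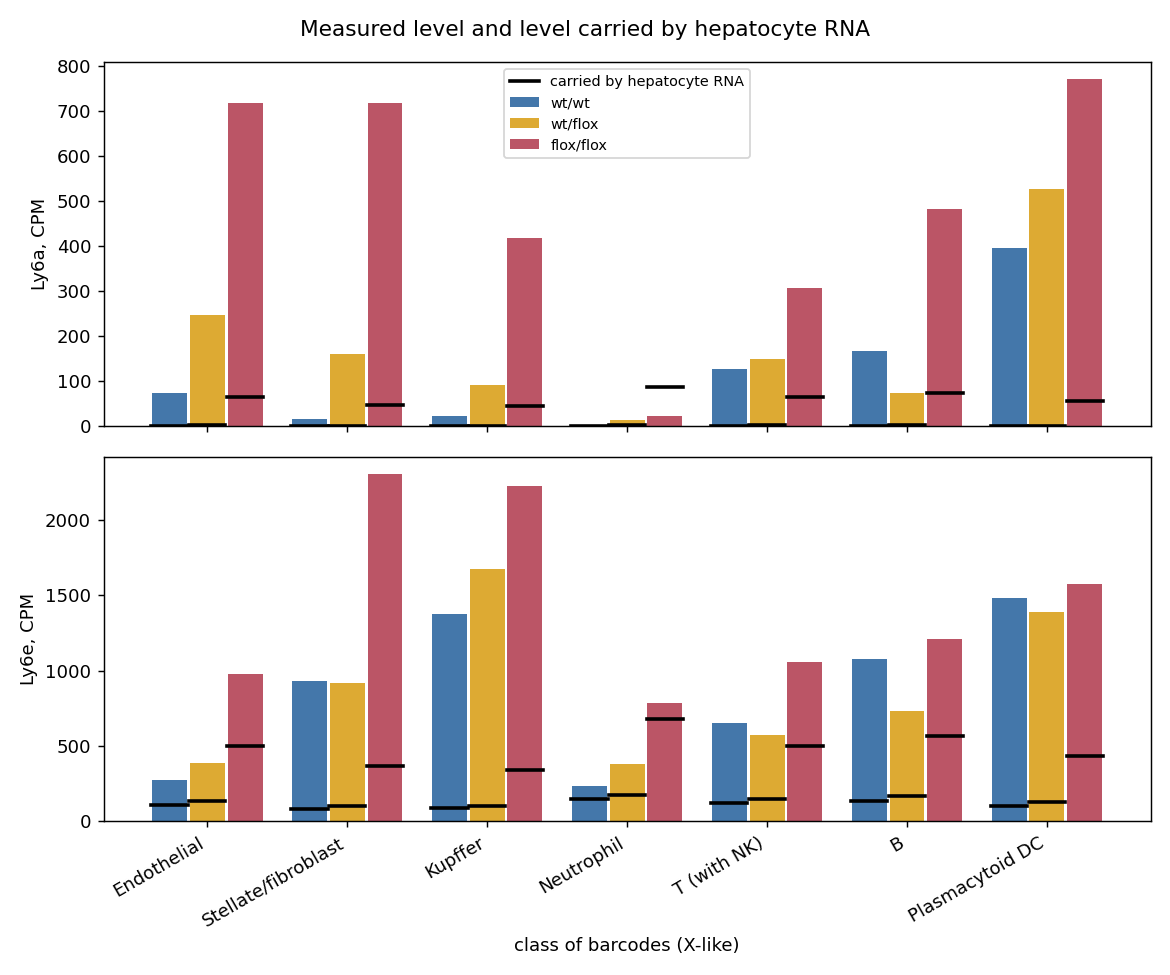
Measured level of Ly6a (top) and Ly6e (bottom) in CPM (vertical axes, from 0) in 7 classes other than hepatocyte-like (horizontal axis), as bars for wt/wt (blue), wt/flox (yellow) and flox/flox (red). Black lines mark the level that the hepatocyte RNA in those barcodes would carry. In the library labelled flox/flox the line reaches 678 of 786 CPM for Ly6e in neutrophil-like barcodes, and for Ly6a it lies above the bar there, at 87.5 against 21.8 CPM from 1 UMI.

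Ly6d was highest in plasmacytoid dendritic-, B- and plasma-like barcodes in every library, at levels that differed little between libraries in the first and second of these. In plasmacytoid dendritic-like barcodes it was at 1089 CPM in wt/wt (860 to 1361; 77 UMIs), 1081 in wt/flox (899 to 1290; 123 UMIs) and 879 in the library labelled flox/flox (757 to 1014; 187 UMIs). The log2 ratio relative to wt/wt was -0.31 (-0.70 to 0.09). In B-like barcodes it was at 406, 515 and 423 CPM (41, 77 and 42 UMIs), a ratio of 0.06 (-0.60 to 0.72). The intervals of the 3 libraries overlapped in both classes, while they did not in hepatocyte-like barcodes. Plasma-like barcodes, 12, 19 and 30 in number and too few for a ratio, held 630.5, 438 and 252 CPM. Plasmacytoid dendritic-like barcodes held 54.6%, 44.2% and 49.2% of all Ly6d UMIs, and the hepatocyte-like part was 2.13%, 11.2% and 31.1%.

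Ly6c2 was found mainly in plasmacytoid dendritic-, monocyte or macrophage-, T-, plasma- and conventional dendritic-like barcodes. In plasmacytoid dendritic-like barcodes it was at 622, 826 and 1222 CPM (44, 94 and 260 UMIs), a log2 ratio relative to wt/wt of 0.97 (0.51 to 1.47). In T-like barcodes it was at 129, 108 and 252 CPM (44, 57 and 155 UMIs), a ratio of 0.96 (0.47 to 1.48), which was 0.42 with at least 1000 UMIs. In the T-like cluster with Ccl5 it was at 138, 82.8 and 251 CPM (41, 6 and 127 UMIs). In the one with Cd3e it was at 69.0, 112 and 256 CPM (3, 51 and 28 UMIs). Monocyte or macrophage-like barcodes (46, 184 and 147) held 347, 504 and 253 CPM, which is no comparison because wt/wt had under 50 of them and the class held different kinds of cells. Its cluster led by Lyz2, F13a1 and Chil3 was at 503, 572 and 535 CPM, with intervals that overlapped between the libraries. Its cluster led by Ms4a7, Gpnmb and Trem2 was at 0, 66.1 and 35.2 CPM. These rest on 0, 2 and 4 UMIs in 15, 24 and 80 barcodes, and their intervals overlapped too. Plasma-like barcodes held 135, 412 and 1035 CPM, from 3, 16 and 78 UMIs, of which up to 21 lay in 1 barcode. Conventional dendritic-like barcodes held 176, 18.3 and 189 CPM, from 12, 2 and 42 UMIs, and neutrophil-like ones 0, 16 and 2 UMIs. Stellate or fibroblast-like barcodes had no Ly6c2 UMI in any library.

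Ly6c1, known as a marker of endothelial cells in several organs, had 1 UMI in endothelial-like barcodes of each library, in 391, 414 and 169 barcodes. Most of its UMIs were in T-like barcodes, with 5, 9 and 25 UMIs or 14.7, 17.0 and 40.6 CPM. The log2 ratio relative to wt/wt was 1.47 (0.06 to 3.21) and relative to wt/flox 1.26 (0.11 to 2.54), beside 20.5% and 18.7% of genes higher. With the class taken from marker counts per barcode the ratio relative to wt/wt was 0.48, below 1.5-fold. In all kept barcodes Ly6c1 had 7, 12 and 34 UMIs, against 150, 330 and 619 of Ly6c2.

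None of the other family genes measured in hepatocyte-like barcodes was at least 1.5-fold higher there. Of 36 listed genes with a Ly6 or related domain 20 had a UMI and 9 had at least 20. In hepatocyte-like barcodes 5 were measured, of which 0 were at least 1.5-fold higher with the label flox/flox, relative to wt/wt, and 1 lower (7.77% of all genes measured there), with a median log2 ratio of -0.47. Ly6g2, further along chromosome 15, was the highest of them, at 75.7, 67.0 and 78.0 CPM, a ratio of 0.04. Cd59a, an inhibitor of complement, had a ratio of 0.25, Cd59b -0.48 and Bambi, a pseudoreceptor of the TGF-beta family, -0.47. Gpihbp1, which holds lipoprotein lipase on capillary endothelium, had 76.1% of its UMIs in endothelial-like barcodes, at 617, 449 and 390 CPM. Ly6i had 24 UMIs in all, 54.2% of them in conventional dendritic-like barcodes, and Ly6g5b 23, mostly T-like. Plaur, the urokinase receptor, had 60 UMIs and Cd177 36, with 26.7% and 63.9% in monocyte or macrophage-like barcodes. In the order of the genes along chromosome 15, Ly6i lies between Ly6e and Ly6a and had 1 UMI in hepatocyte-like barcodes (4.17% of its UMIs), while both its neighbours were high there in the library labelled flox/flox.

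The genes most like each member were taken over 24 points, 8 classes in each of 3 libraries, among 10039 genes, by Pearson's r of log2(CPM + 10). The points share libraries and carry hepatocyte RNA in common, so r is a description. Ly6d was most like the B cell adaptor Blnk (r = 0.97), the immunoglobulin light chain gene Iglc3 (0.96), the transcription factor Bcl11a (0.95) and Napsa (0.94). Ly6c2 was most like Cd4 (0.89), Cd7 (0.89), Cd8b1 (0.87) and the monocyte chemokine receptor Ccr2 (0.86). Nearest to Ly6a were Bclaf1 (0.80), Slbp (0.80), the interferon-induced Ifi203 (0.79) and the splicing factor Rbm39 (0.79). For Ly6e they were the protease gene Ctss (0.81), Anp32b (0.80), Parp11 (0.78) and Mycbp2 (0.77).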

How the data were processed

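Livers were digested with collagenase and enriched by low-speed spins and Percoll, per the labels' protocols, which favours hepatocytes. The deposited values are whole-number UMI counts per gene and barcode, made by the authors with Cell Ranger 6.1.1, per the file headers, on mm10, per the submitters' processing notes. Each library was deposited with exactly 10000 barcodes. Barcodes were kept with at least 500 UMIs, 250 genes and at most 40% mitochondrial UMIs. They were clustered in scanpy 1.11.5 (leidenalg 0.10.2, 2000 variable genes, 30 components, 15 neighbours, resolution 1) without the Ly6 family, and barcodes outside hepatocyte-like clusters were clustered again. A class name other than hepatocyte-like needed 3 of its markers at 4-fold and in 5% of barcodes, with 1 among the 10 leading genes. Hepatocyte-like was set by absence. It took clusters of at least 50 barcodes in which no other class had 3 such markers or any marker among the leading genes. No hepatocyte marker met the 4-fold and 5% rule in these clusters. The 12 hepatocyte markers summed to 78328, 69193 and 63391 CPM there in wt/wt, wt/flox, flox/flox. No doublet caller was run and doublets remain. UMIs were summed per class and library as CPM. CPM carry exact Poisson, shares Clopper-Pearson and log2 ratios conditional binomial 95% intervals. In ratios counts under 3 were set to 3. A gene needed 20 UMIs in a class, and 1.5-fold was the threshold. Ratios were tested on simulated Poisson counts with known folds, drawn from the mean levels of hepatocyte-like barcodes. The intervals assume that same model, so the simulation checks the calculation and not the spread between animals or libraries. With 1 library per genotype no test was run. Of 32285 gene IDs 32158 matched GENCODE vM21. Coding sequences were aligned with Biopython 1.88.

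All 5 members, the 4 genes most like each member with at least 100 UMIs, other family genes with at least 20 UMIs and the highest, middle and lowest interferon gene are named. The members and lists were chosen with earlier results of these data known. Alternatives were other barcode filters, resolutions, a class from marker counts per barcode, other totals, thinning and, added after the data were seen, subtraction of carried RNA and removal of barcodes with another class's markers. Clusters named for their leading genes were chosen after their values were seen.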

Additional observations from a re-analysis of the deposited data

Results flagged for a closer look

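Both Ly6a and Ly6e had B-like levels in wt/flox below those in wt/wt, the opposite of the direction in several other classes. The log2 ratio of Ly6a in B-like barcodes was -1.19 (-2.43 to -0.02), from 11 and 17 UMIs, against 1.74 in endothelial-like, 1.95 in Kupffer-like and 3.33 in stellate or fibroblast-like barcodes. That of Ly6e was -0.55 (-0.95 to -0.16), from 110 and 109 UMIs, against 0.30 in hepatocyte-like, 0.28 in Kupffer-like and 0.52 in endothelial-like barcodes, but stellate or fibroblast-, T- and plasmacytoid dendritic-like barcodes were at -0.03, -0.20 and -0.10 with intervals that include 0. The Ly6a ratio ran from -1.50 to -0.01 over the alternatives. It was -0.01 with the class taken from marker counts per barcode and -0.53 after thinning, and neither is past 1.5-fold. The differences between classes were not tested, and each genotype had 1 library.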

How the results depend on the processing

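No paired analysis was possible because each genotype had 1 library. In hepatocyte-like barcodes the called ratios kept their direction and their side of 1.5-fold in all 109 values for which a ratio was formed, over 14 alternatives. In other classes 354 of 389 did. Of the others, 8 fell below 1.5-fold or turned sign with at least 2000 UMIs, 7 thinned, 6 with carried RNA taken off, 5 with at least 1000 UMIs and 5 with the class from marker counts. Where both counts were at or under 3 no ratio was formed, and such cases are not among the recomputed values. In hepatocyte-like barcodes they were called ratios of wt/flox over wt/wt. Those of Ly6a and Ly6d were lost with at least 2000 UMIs (1 and 0 UMIs each). That of Ly6a was also lost with carried RNA taken off, where 0 UMIs were left in both. Values with a count under 3 are set by the floor of 3 and show no stability. In hepatocyte-like barcodes these are Ly6a and Ly6d with at least 2000 UMIs, Ly6a with carried RNA taken off and Ly6d relative to wt/wt under 6 alternatives. The cause was not tested where a value changed. With at least 1000 UMIs the log2 ratio over wt/wt was 6.1 for Ly6a and 2.19 for Ly6e, that of Ly6d over wt/flox 2.97, and the level of Ly6a in the library labelled flox/flox 109 CPM. With at least 2000 UMIs the ratios over wt/wt were 3.67 for Ly6a and 1.00 for Ly6d and those over wt/flox 3.33 for Ly6a, 0.66 for Ly6d and 2.17 for Ly6e, with levels of 18.5 CPM for Ly6d and 963 CPM for Ly6e. After thinning to 1000 UMIs the ratios were 5.60 for Ly6a and 3.44 for Ly6d over wt/wt and 2.42 for Ly6d over wt/flox, the level of Ly6a 101 CPM and its share of barcodes 9.44%. With the class taken from marker counts per barcode, where every barcode with under 3 marker UMIs counts as hepatocyte-like, the ratios were 4.72 for Ly6a over wt/wt and, over wt/flox, 3.53 for Ly6a, 0.77 for Ly6d and 1.90 for Ly6e. Without mitochondrial genes in the total the levels were 130 CPM for Ly6a and 1010 CPM for Ly6e. Ly6e was at 892 CPM with median-of-ratios size factors and at 883 CPM with no barcode filter. With carried RNA taken off, the ratios over wt/flox were 8.06 for Ly6a, set by the floor, and 3.30 for Ly6d, with levels of 108 CPM for Ly6a and 888 CPM for Ly6e. Without barcodes holding another class's markers they were 6.09 for Ly6a and 4.10 for Ly6d. The ratios past 1.5-fold that turned sign were all outside hepatocytes. With at least 2000 UMIs they were Ly6a in endothelial-like barcodes (wt/flox over wt/wt, -1.19), Ly6e in Kupffer-like (over wt/wt, -0.039) and Ly6a in T-like ones (-1.72 over wt/wt and -0.65 over wt/flox), from 1 to 19 barcodes a library. Below that threshold, Ly6a in plasmacytoid dendritic-like barcodes over wt/flox went from 0.55 to -1.93, with 1 wt/flox barcode left and no UMI in it. Ly6e in neutrophil-like barcodes turned for wt/flox over wt/wt with at least 1000 UMIs (-0.36) and thinned (-0.52), and over wt/wt thinned (-0.22), where wt/wt kept 3 barcodes. With carried RNA taken off its ratio over wt/flox was -0.89.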
